A study of Mus musculus with 6 samples.

Results

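AMP-activated protein kinase (AMPK) is encoded in the mouse by 7 subunit genes, and its main activating kinase LKB1 by Stk11. These 8 genes were followed here in carotid body and adrenal medulla. The members were all probe sets that the platform annotation assigns to one of the 8 gene symbols alone, which gave 18 probe sets for 8 genes, out of 45037 probe sets and 18193 genes measured. Expression microarrays had been run on 6 RNA samples from untreated adult mice of the strain labelled C57/BL6, in 2 groups of 3. A carotid body sample combined 18 carotid bodies and an adrenal medulla sample 10 medullas, in both cases from 10 mice, so that each array reads a pool and not an animal. The labels number the samples by cohort, and a carotid body and an adrenal medulla sample with one number share a cohort of animals; no genetic change or treatment is named for either group. The carotid body is the arterial chemoreceptor at the carotid bifurcation, and the adrenal medulla is the inner, catecholamine-secreting part of the adrenal gland. Samples are called carotid body or adrenal medulla arrays 1 to 3 after their cohort.

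AMPK is an energy sensor built from a catalytic alpha, a scaffolding beta and a nucleotide-binding gamma subunit. AMP or ADP binding to the gamma subunit, together with phosphorylation of the activation loop of the alpha subunit by LKB1 or by a calcium-dependent kinase, turns the complex on when ATP falls. The active kinase switches off lipid synthesis and growth and switches on fuel uptake and autophagy, and it has been proposed to link a fall in oxygen to the excitation of carotid body cells by acting on their potassium channels. The comparison of the carotid body with the adrenal medulla asks how the RNA of this kinase is set in an organ of oxygen sensing against a related endocrine organ.

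Deposited values are log2 intensities, which lay between 2.7 and 14.97, and 25% of all probe sets had a mean over the arrays below 3.99. Differences are given as carotid body minus adrenal medulla on the log2 scale, so negative values are higher in adrenal medulla, and adjusted p-values are from limma with Benjamini-Hochberg adjustment over all 45037 probe sets. Arrays of a tissue correlated at 0.978 to 0.995 with each other and at 0.938 to 0.951 with those of the other tissue. Of 7 measured chromaffin and glomus cell genes, 5 were at least 2-fold higher in adrenal medulla (adjusted p under 0.05), namely Th, Dbh, Chga, Chgb and Slc18a1, with differences of -3.41 to -1.18. Olfr78, an olfactory receptor gene known from carotid body glomus cells, differed the other way, by 6.15, and Slc18a2 did not pass. Carotid body array 1 stood apart, since 10 genes of the steroid-producing adrenal cortex averaged 10.06 there, 5.28 and 5.0 in carotid body arrays 2 and 3, and 11.63 to 12.12 in adrenal medulla. Cortex genes were thus bright in every adrenal medulla pool and in that carotid body pool. All 7 fibroblast and matrix markers and all 6 smooth muscle and pericyte markers were higher in carotid body (adjusted p under 0.05 and at least 2-fold), with mean levels of 12.07 to 12.37 against 9.04 to 9.16 and of 11.24 to 11.31 against 8.48 to 8.77. So were 3 of 4 glial markers, S100b, Mbp and Sox10, with a list mean of 9.20 to 9.48 against 7.16 to 7.47, and 2 of 5 endothelial markers, Cdh5 and Cldn5, with 9.14 to 9.36 against 7.86 to 8.07. Xist, an RNA made from the inactive X chromosome of female cells, was at 8.84 to 10.96 in carotid body, against 4.45 to 5.60 in adrenal medulla. Pools labelled as one cohort of animals thus differed in it in all 3 cohorts. The 3' minus 5' difference of the Gapdh control probe sets, a sign of RNA quality, was 0.59 to 1.45 in carotid body, highest in array 1 and lowest in array 3, and 0.13 to 0.61 in adrenal medulla. The part of any of these in the values below was not tested, and fewer cells of a type cannot be told apart from less RNA per cell.

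RefSeq promoter windows (GRCm38.p6) were found for all 8 genes. The 250 bases upstream of the annotated starts are shown for the catalytic subunit whose RNA differed between the tissues (Prkaa1), for the one whose RNA did not pass the test (Prkaa2), and for Prkag2, the other gene whose brightest probe set differed. Capitals mark GC boxes, searched as GGGCGG on both strands. All 3 listed starts of Prkag2 are given because the probe sets were not assigned to a start.
Prkaa1, chr15:5143611-5143860, plus strand: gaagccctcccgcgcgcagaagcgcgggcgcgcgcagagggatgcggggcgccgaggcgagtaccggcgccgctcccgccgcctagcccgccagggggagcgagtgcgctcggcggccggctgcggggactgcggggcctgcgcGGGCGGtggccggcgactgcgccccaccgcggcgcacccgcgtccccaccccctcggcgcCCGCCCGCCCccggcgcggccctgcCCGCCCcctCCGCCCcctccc
Prkaa2, chr4:105109899-105110148, minus strand: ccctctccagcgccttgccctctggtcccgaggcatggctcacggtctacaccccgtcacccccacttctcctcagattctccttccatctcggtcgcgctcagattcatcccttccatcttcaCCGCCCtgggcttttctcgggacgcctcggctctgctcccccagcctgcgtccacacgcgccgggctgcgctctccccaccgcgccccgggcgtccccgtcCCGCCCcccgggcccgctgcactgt
Prkag2 start 1, chr5:25100643-25100892, minus strand: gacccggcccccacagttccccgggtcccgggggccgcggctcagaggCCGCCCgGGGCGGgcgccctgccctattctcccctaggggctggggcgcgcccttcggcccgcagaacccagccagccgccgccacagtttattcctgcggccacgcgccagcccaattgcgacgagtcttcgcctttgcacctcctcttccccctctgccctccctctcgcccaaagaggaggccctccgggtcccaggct
Prkag2 start 2, chr5:24995754-24996003, minus strand: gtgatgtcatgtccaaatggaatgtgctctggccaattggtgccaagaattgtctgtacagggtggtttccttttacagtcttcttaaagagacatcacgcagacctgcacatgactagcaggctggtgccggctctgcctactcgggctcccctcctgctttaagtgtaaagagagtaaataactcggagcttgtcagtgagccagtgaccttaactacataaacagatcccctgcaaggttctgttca
Prkag2 start 3, chr5:24908510-24908759, minus strand: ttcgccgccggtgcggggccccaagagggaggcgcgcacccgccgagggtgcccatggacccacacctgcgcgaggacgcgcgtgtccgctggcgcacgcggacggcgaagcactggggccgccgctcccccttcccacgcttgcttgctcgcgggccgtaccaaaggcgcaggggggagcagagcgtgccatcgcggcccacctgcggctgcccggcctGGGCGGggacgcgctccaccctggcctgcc
The Prkaa1 window was 85.2% G or C with 45 CpG dinucleotides and 5 GC boxes, some overlapping, and the Prkaa2 window was 70.0% G or C with 24 CpG and 2 GC boxes. Prkag2 start 2 differed from the other Prkag2 starts, with 48.4% G or C and 4 CpG against 73.2% and 77.2% and 23 and 34. A GC box was present in 32.7% of the 32817 windows of the same length in the table. The ACGTG form of the HIF site core, on either strand, occurred in none of the 9 windows of the subunit genes. It occurred at 2 positions in that of Stk11, and 16.6% of all windows held it. The GCGTG form was not searched, and it or its complement CACGC stands in windows shown above, such as that of Prkaa2. These matches describe letters in a window and are not binding sites.

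Of the 18 probe sets, 4 were higher in adrenal medulla at an adjusted p under 0.05 and 0 were higher in carotid body. Over all probe sets these shares were 12.4% and 11.5%. The 4 belonged to 3 genes, Prkaa1, Prkab1 and Prkag2, and 1 of them, for Prkag2, also passed 2-fold, a mark that 4.58% of all probe sets passed in that direction and 5.95% toward carotid body. At an unadjusted limma p under 0.05, 0 of the 18 were higher in carotid body either, against 7466 of all 45037 probe sets. Of the 18, 14 had the lower mean in carotid body, against 48.7% of all probe sets, and the median difference was -0.25 against 0.01 for all. Several of the 18 read the same gene. By the brightest probe set of each gene, 6 of 8 members had the lower mean, against 9951 of 18193 genes. Their median was -0.28, against -0.04 for all genes, and 2 of 8 passed toward adrenal medulla, against 16.5%. In 8 of the 18 every carotid body array lay below every adrenal medulla array, a pattern shown by 20.4% of all probe sets; the reverse pattern, shown by 19.8%, occurred in 0 of the 18. The differences were small, from -1.10 to 0.10. Scaling moved the count. Median centring of the arrays shifted the median difference of all probe sets to -0.11; 7 of the 18 were then higher in adrenal medulla, against 16.7% of all probe sets, and all 18 had the lower mean in carotid body. Under that centring the share of 2-fold calls that lay toward carotid body was 46.0%, against 56.5% as deposited. Without carotid body array 1, the one with bright cortex genes, 1 of the 18 passed, the Prkag2 probe set past 2-fold, against 10.5% of all probe sets, and 16 had the lower mean in carotid body. The count was also 1 without adrenal medulla array 2 or array 3, against 6.66% and 7.91%, and 2 without carotid body array 2, against 8.37%. Without cohort 2, both of its arrays, 0 of the 18 passed, and 17 of 18 still had the lower mean in carotid body. There the share of all probe sets passing toward adrenal medulla was 2.57%. The share of all probe sets with the lower mean in carotid body is not given for the centred or leave-out values.

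**Figure D1:**
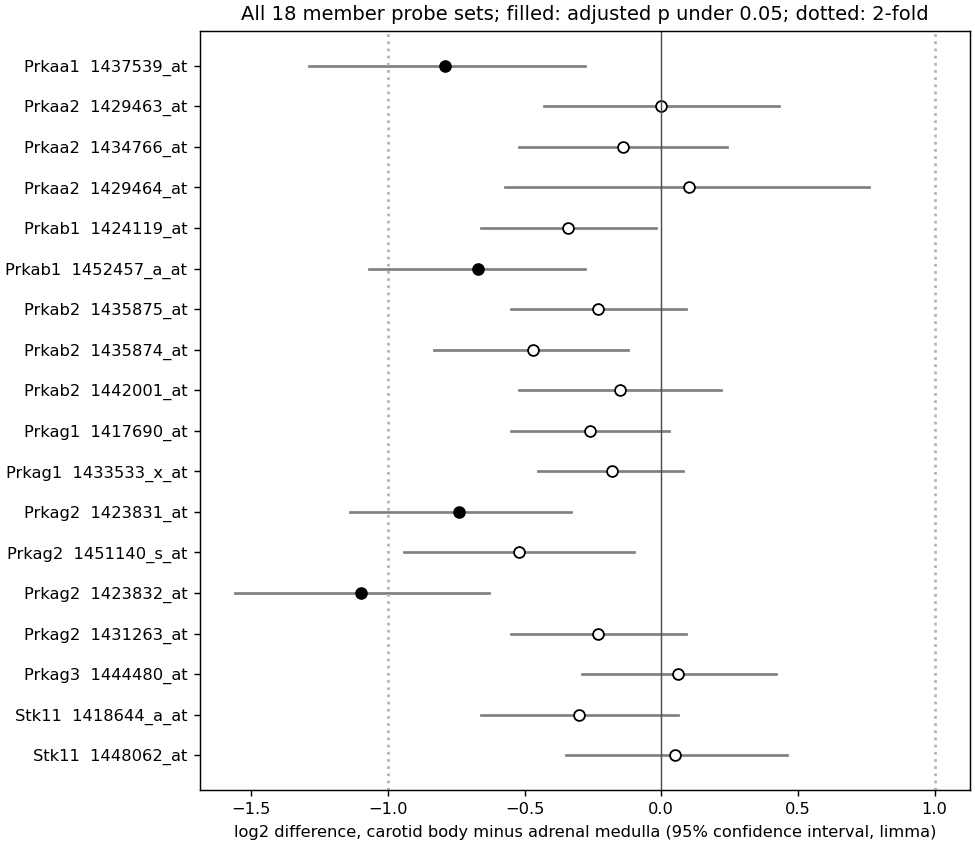
Log2 difference (carotid body minus adrenal medulla, horizontal axis) of each of the 18 probe sets with its 95% confidence interval from limma; filled points have an adjusted p under 0.05 and dotted lines mark 2-fold. The 4 filled points, for Prkaa1, Prkab1 and Prkag2, lie left of 0, and the only point past 2-fold is a Prkag2 probe set at -1.10.

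The catalytic subunits gave different estimates. Prkaa1, which encodes the alpha1 catalytic subunit found in most tissues, was lower in carotid body, and Prkaa2, which encodes the alpha2 subunit prominent in muscle, did not pass the test. The single Prkaa1 probe set, 1437539_at, read 7.20, 7.02 and 7.75 in carotid body arrays 1, 2 and 3 and 7.81, 8.25 and 8.27 in the adrenal medulla arrays. The groups did not overlap, but carotid body array 3 came close to adrenal medulla array 1. Carotid body averaged 7.32 ± 0.38 and adrenal medulla 8.11 ± 0.26 (SD, n = 3), which differ by -0.79 ± 0.22 (SE; limma adjusted p = 0.0348), or 1.73-fold toward adrenal medulla. It was lower in carotid body in all 3 cohorts, by -0.61, -1.23 and -0.52. Leaving out carotid body arrays 1 and 2 and adrenal medulla arrays 2 and 3, one at a time, raised the adjusted p to 0.0877, 0.111, 0.127 and 0.120, and without cohort 2 the difference was -0.57 (adjusted p = 0.299).

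For Prkaa2 the brightest of 3 probe sets, 1429463_at, read 7.66, 7.67 and 7.11 in carotid body, against 7.26, 7.60 and 7.55 in adrenal medulla. Carotid body arrays 1 and 2 were the highest of the 6 and carotid body array 3 the lowest, so the adrenal medulla values lay inside the carotid body range. The difference was 0.00 with a 95% interval from -0.43 to 0.43 (limma adjusted p = 0.992). This range holds the estimates of the brightest Prkab1 and Prkab2 probe sets and not that of Prkaa1. The interval of Prkaa1, from -1.29 to -0.28, overlaps it. By cohort the Prkaa2 difference was 0.40, 0.06 and -0.45. The next probe set, 1434766_at, gave -0.14 (interval -0.52 to 0.24), and the dim 1429464_at, whose mean lay at the 23.0th percentile of all probe sets, gave 0.10 (interval -0.57 to 0.76). In 1429464_at, too, carotid body array 3 was the lowest of the 6, at 3.31, and array 1 the highest, at 4.51.

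**Figure D2:**
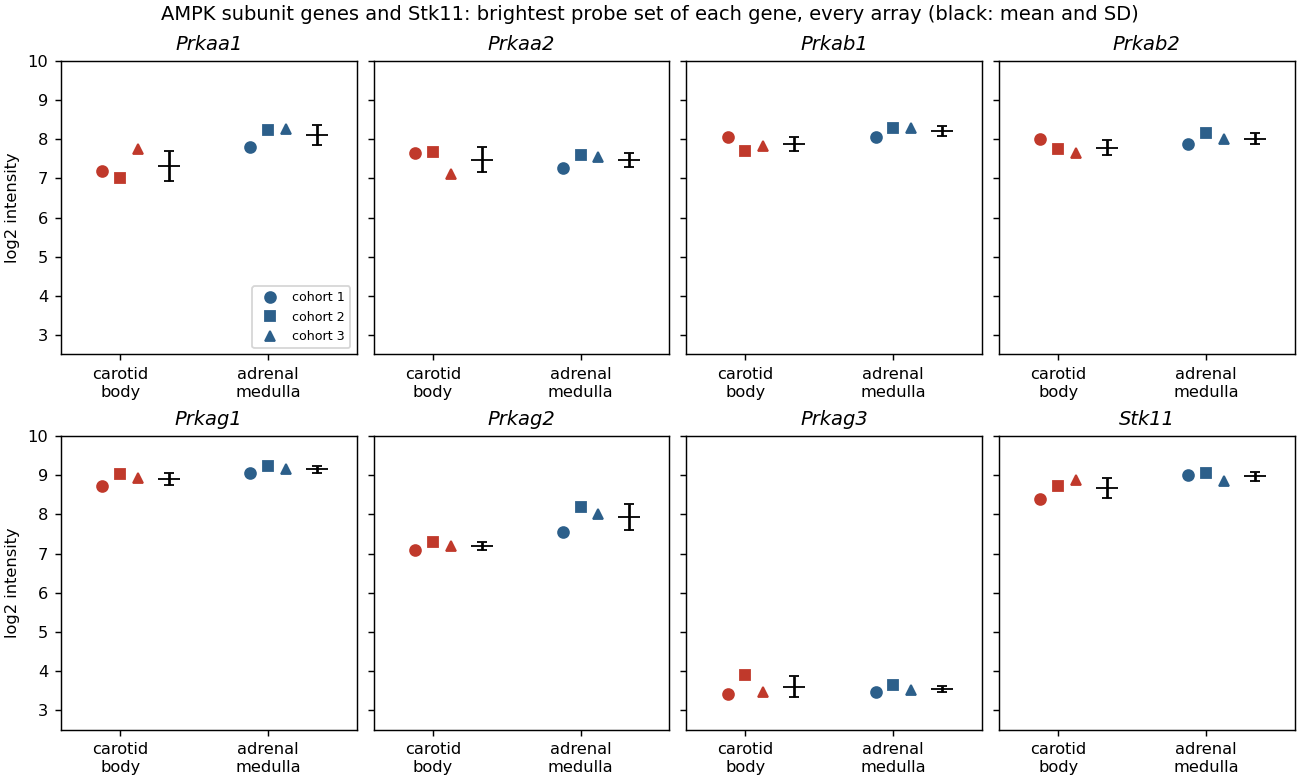
Log2 intensity of the brightest probe set of each gene in every array (red, carotid body; blue, adrenal medulla; symbols give the cohort), with the mean and SD of each tissue in black; n = 3 arrays a tissue. The tissues separate for Prkaa1, Prkag1 and Prkag2 and overlap for the other genes, and Prkag3 lies between 3.42 and 3.90 in all 6; levels of different genes rest on different probes and are not comparable.

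The beta subunits hold the complex together and bind glycogen. Prkab1, encoding beta1, leaned toward adrenal medulla in both probe sets, and 1 of these passed. The brighter, 1424119_at, read 8.07, 7.71 and 7.84 in carotid body, against 8.07, 8.28 and 8.29 in adrenal medulla, with a difference of -0.34 ± 0.14 (SE; adjusted p = 0.121). The tissues overlapped because both arrays of cohort 1 read 8.07; the cohort differences were 0.00, -0.57 and -0.45. The dimmer, 1452457_a_at, read 5.56, 5.62 and 5.87 against 6.16, 6.67 and 6.24, with no overlap and a difference of -0.67 ± 0.17 (adjusted p = 0.0245). Leaving out carotid body array 1 or 2, or array 2 or 3 of adrenal medulla, raised its adjusted p to between 0.0558 and 0.0792. With the mean of the 2 probe sets Prkab1 differed by -0.51 (adjusted p = 0.0186).

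Prkab2, encoding beta2, an isoform abundant in muscle, had 3 probe sets, and none passed as deposited without a block. The brightest, 1435875_at, read 8.0, 7.74 and 7.64 in carotid body, against 7.89, 8.15 and 8.02 in adrenal medulla, a difference of -0.23 with an interval of -0.55 to 0.09 (adjusted p = 0.294). Carotid body array 1 was as high there as the adrenal medulla arrays. The almost equally bright 1435874_at read 7.46, 7.66 and 7.67 against 7.82, 8.30 and 8.09, with no overlap and a difference of -0.47 ± 0.15 (SE; adjusted p = 0.0596; 0.0387 in the paired fit with the cohort as a block). It also passed with median centring (0.0312), with array weights (0.0447) and without adrenal medulla array 1 (0.0340). The dim 1442001_at differed by -0.15, with all 6 arrays between 4.48 and 5.01.

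The gamma subunits carry the sites that bind AMP, ADP and ATP. Among them Prkag2, encoding gamma2, a form known from heart disease mutations, had the largest difference of any member probe set, while Prkag1, encoding the widespread gamma1, had smaller estimates and did not pass. The brightest Prkag2 probe set, 1423831_at, read 7.10, 7.29 and 7.18 in carotid body, against 7.56, 8.20 and 8.02 in adrenal medulla. All carotid body arrays were below all adrenal medulla arrays, and adrenal medulla array 1 was the nearest to them. The difference was -0.74 ± 0.17 (SE; adjusted p = 0.0197), or 1.67-fold, and leaving out carotid body array 1, adrenal medulla array 2 and adrenal medulla array 3 in turn raised the adjusted p to 0.0527, 0.0754 and 0.0758. The dimmer 1423832_at read 4.16, 3.91 and 4.65 against 5.37, 5.48 and 5.16, which gave -1.10 ± 0.20 (adjusted p = 0.00671). Its carotid body values lay around 3.99, the level below which the dimmest 25% of probe sets fell, and without detection calls it is not known whether they were above background, so the measured ratio of 2.14-fold is not a firm size. This was the one member value that stayed under an adjusted p of 0.05 whichever single array was left out; without both arrays of cohorts 1 and 2 in turn it was 0.0502 and 0.0939, and without carotid body array 2 the difference was -0.93, under 2-fold.

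Of the other Prkag2 probe sets, 1451140_s_at read 6.66, 7.13 and 7.32 in carotid body, against 7.65, 7.54 and 7.48 in adrenal medulla, a difference of -0.52 ± 0.18 (SE; adjusted p = 0.0746) with no overlap. The suffix _s_at marks probes that can also match other transcripts. The fourth, 1431263_at, was at 3.12 to 3.66 in all arrays, at the 6.3th percentile of brightness, and differed by -0.23 (adjusted p = 0.280). The 4 values, from -1.10 to -0.23, thus had one direction.

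Prkag1 was read by 1417690_at at 8.72, 9.03 and 8.94 in carotid body, against 9.07, 9.25 and 9.16 in adrenal medulla. The tissues did not overlap, although the difference was only -0.26 ± 0.12 (SE; interval -0.55 to 0.03; adjusted p = 0.183). Its second probe set, 1433533_x_at, also did not overlap, at 6.87 to 7.11 against 7.14 to 7.25, and gave -0.18 (adjusted p = 0.310). The suffix _x_at marks probes that may bind unrelated sequences.

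Prkag3 encodes gamma3, a subunit found mainly in fast skeletal muscle. Its single probe set, 1444480_at, read 3.42, 3.90 and 3.47 in carotid body, against 3.47, 3.63 and 3.50 in adrenal medulla, near the floor of the scale at the 11.3th percentile. The difference was 0.06 (interval -0.29 to 0.42; adjusted p = 0.820), and without a detection call such a level does not separate low expression from none. Among 9 skeletal muscle markers the fast myosin heavy chain genes Myh1, Myh2 and Myh4 were as dim, at 3.46 to 4.05 in the 6 arrays. The list was not dim throughout. The muscle creatine kinase gene Ckm read 4.64 to 4.99. The myosin light chain gene Myl1 read 5.73, 6.16 and 5.65 in carotid body, against 7.46, 7.78 and 7.80 in adrenal medulla (-1.83, limma adjusted p = 0.000395). The troponin gene Tnnt3 went the other way without overlap (0.76, limma adjusted p = 0.0192), and the actinin gene Actn3 differed by -0.58 (limma adjusted p = 0.0131).

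Stk11, whose product LKB1 phosphorylates the alpha subunits, did not pass in either probe set. The bright 1418644_a_at read 8.39, 8.73 and 8.89 in carotid body, against 9.01, 9.05 and 8.85 in adrenal medulla. Carotid body arrays 1 and 2 were below all adrenal medulla arrays and array 3 was within their range. The difference was -0.30 ± 0.15 (SE; interval -0.66 to 0.06; adjusted p = 0.215). The dim 1448062_at, with values of 4.17 to 4.67, gave 0.05 (adjusted p = 0.870).

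Whether one isoform of a subunit changed more than another was examined as the log2 ratio of their brightest probe sets within each array, in 4 ratios. The size of such a ratio depends on the probes, so only its change between tissues can be read. With 3 arrays against 3 an exact two-sided permutation test cannot give a p below 0.1, so none of the ratios could pass 0.05. Prkaa2 over Prkaa1 was 0.46, 0.64 and -0.64 in carotid body, against -0.55, -0.65 and -0.72 in adrenal medulla. Carotid body arrays 1 and 2 had a ratio about 1 log2 unit above the rest, while carotid body array 3 had that of an adrenal medulla array. The change was 0.79 (exact permutation p = 0.2; 0.267 adjusted over the 4 ratios), and by cohort it was 1.01, 1.29 and 0.08; without carotid body array 3 it was 1.19 and without array 2 it was 0.55. The Gapdh 3' minus 5' difference was also higher in carotid body arrays 1 and 2 than in array 3, and its part in this ratio was not tested.

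Prkag2 over Prkag1 was lower in every carotid body array than in any adrenal medulla array. It was -1.63, -1.74 and -1.76 in carotid body, against -1.51, -1.05 and -1.14 in adrenal medulla, a change of -0.47 (exact permutation p = 0.1, the smallest possible; 0.2 adjusted). The cohort values were -0.12, -0.69 and -0.62. Prkab2 over Prkab1 changed by 0.11 (exact permutation p = 0.3) and overlapped. Prkag3 over Prkag1 changed by 0.33 without overlap (exact permutation p = 0.1; 0.2 adjusted), with Prkag3 near the floor in all 6 arrays.

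**Figure D3:**
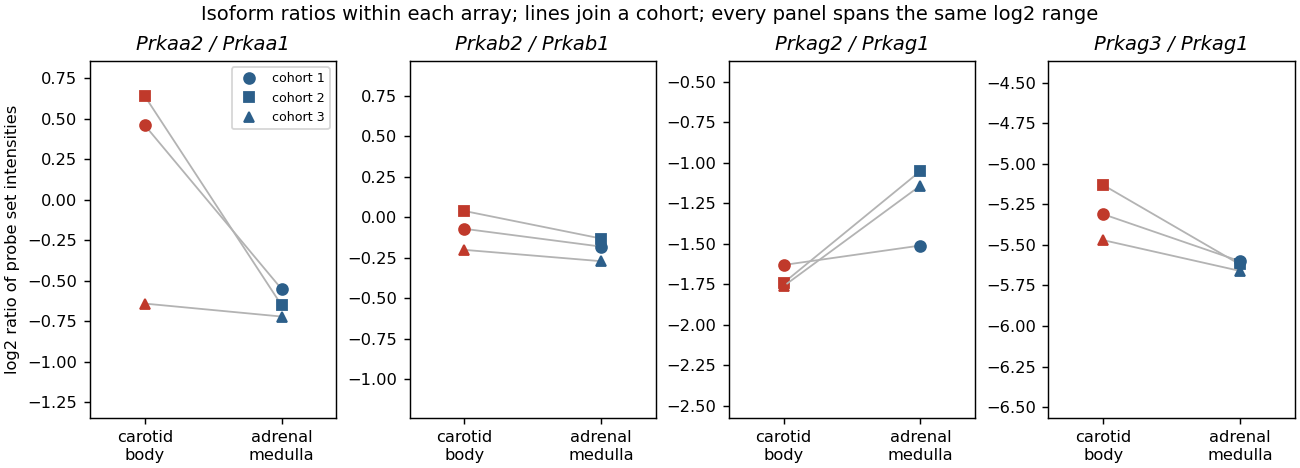
Log2 ratio of the brightest probe sets of 2 isoforms within each array (red, carotid body; blue, adrenal medulla); grey lines join the arrays of a cohort, and all panels span the same range. In Prkaa2 over Prkaa1, carotid body arrays 1 and 2, at 0.46 and 0.64, stand apart from the other 4 arrays, which lie between -0.72 and -0.55; in Prkag2 over Prkag1 the tissues do not overlap.

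By the smallest root-mean-square distance between centred log2 values over the 6 arrays, among 9096 genes, the genes most like Prkaa1 were B230217C12Rik, Zfp516 and Mycn, at distances of 0.054, 0.078 and 0.080. Those most like Prkaa2 were 1700037H04Rik, Wipf2 and Stim1, at 0.091, 0.098 and 0.098. Mycn, a proto-oncogene of the sympathoadrenal lineage, read 8.29, 8.23 and 8.78 in carotid body, against 8.99, 9.25 and 9.46 in adrenal medulla. With 6 values from 2 tissues, many genes share such a pattern.

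The rest of the pathway was read from 7 lists of 62 genes, of which 58 were measured, each by its brightest probe set. Of these 58, 14 passed an adjusted p of 0.05 toward adrenal medulla and 3 toward carotid body, against 16.5% and 10.9% of all 18193 genes, and 6 and 1 also passed 2-fold, against 6.08% and 5.91%. The median difference was -0.20, against -0.04 for all genes. With the cohort as a block, 17 and 5 passed, the added genes being Camkk2 and Fnip2 toward carotid body and Tbc1d4, Pnpla2 and Tsc2 toward adrenal medulla. After quantile normalization 6 were higher in carotid body, and without cohort 2 the counts were 3 and 1. Toward adrenal medulla and carotid body, 11 and 4 passed without carotid body array 1, 11 and 5 without adrenal medulla array 1, 9 and 2 without adrenal medulla array 2, and 9 and 3 without cohort 3. The share of all probe sets passing toward adrenal medulla, 12.4% as deposited, was 10.5%, 9.84%, 6.66% and 9.97% in these fits. Without cohort 2 it was 2.57%. These are shares of probe sets, while the counts are of genes by their brightest probe set. The share of genes, 16.5% as deposited, was higher and is not given for these fits. With the block 6174 of 45037 probe sets passed in that direction, and 5314 after quantile normalization, against 5576 as deposited. The share toward carotid body is not given for the leave-out fits.

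Upstream of AMPK, both STRAD genes were lower in carotid body by their brightest probe sets. LKB1 works in a complex with a STRAD pseudokinase and the scaffold MO25. Of 6 measured genes for LKB1 partners and other AMPK-activating kinases, 2 passed toward adrenal medulla and 0 toward carotid body, and the median was -0.21. The shares of all genes that passed were 16.5% and 10.9%. Stradb read 6.87, 6.56 and 7.14 in carotid body, against 7.85, 8.17 and 8.20 in adrenal medulla. The difference was -1.22 ± 0.18 (SE; adjusted p = 0.00276), and its other probe set gave 0.48 without passing. Strada differed by -0.56 ± 0.11 (adjusted p = 0.00995), with 4 probe sets from -0.56 to 0.16. The MO25 genes Cab39 and Cab39l differed by -0.16 and 0.29 (adjusted p = 0.384 and 0.455). Camkk2, the calcium-dependent kinase that also activates AMPK, was singled out after its values were seen: it read 8.72, 8.87 and 8.08 in carotid body, against 8.19, 7.65 and 7.69 in adrenal medulla, a difference of 0.72 ± 0.24 (adjusted p = 0.0676; 0.0379 in the paired fit). Carotid body array 3 was below adrenal medulla array 1, so the tissues overlapped.

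LKB1 also activates a family of kinases related to AMPK, among them the SIK, MARK, BRSK and NUAK kinases. Of 12 measured, 1 was higher in adrenal medulla, the microtubule affinity kinase gene Mark3 at -0.55 ± 0.14 (SE; adjusted p = 0.0248), and 0 were higher in carotid body. Over all genes the shares passing were 16.5% and 10.9%. By brightest probe sets the differences of the 12 ran from -0.55 to 0.34 with a median of -0.13. Among the 4 probe sets of Sik3, from -0.17 to 0.65, 1 passed toward carotid body. The adjusted p of Mark3 rose to between 0.0511 and 0.0789 when any one array other than carotid body array 3 was left out. The folliculin complex restrains AMPK signalling. Of 6 genes of this complex and of the sestrins, 1 was higher in adrenal medulla, against 16.5% of all genes. This was folliculin, Flcn, which read 8.62, 8.32 and 8.72 in carotid body, against 9.19, 9.33 and 9.34 in adrenal medulla, which is -0.73 ± 0.14 (adjusted p = 0.00767). The 3 probe sets of Flcn spanned -0.95 to -0.24, and 2 passed. The folliculin-interacting proteins Fnip1 and Fnip2 differed in opposite directions, by -0.58 and 0.56 (adjusted p = 0.0724 and 0.0616; the latter 0.0247 in the paired fit).

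Enzymes that set AMP levels, the adenylate kinases and AMP deaminases, had 3 of 7 measured members passing toward adrenal medulla and 0 toward carotid body. Of all genes, 16.5% and 10.9% passed. These counts rest on brightest probe sets, and among the 3 probe sets of Ak3, from -0.94 to 0.06, 1 passed toward adrenal medulla. Adenylate kinase 5, Ak5, an isoform of brain, read 6.10, 5.18 and 5.63 in carotid body, against 8.44, 8.97 and 9.23 in adrenal medulla. These values lay far apart, with a difference of -3.24 ± 0.28 (SE; adjusted p = 0.000272), 9.47-fold, and the second probe set gave -1.41 and passed too. The AMP deaminase genes Ampd2 and Ampd3 differed by -0.89 ± 0.16 (adjusted p = 0.00640) and -0.96 ± 0.23 (adjusted p = 0.0195), while Ampd1, the muscle form, was at 3.63 to 3.93 in all arrays. The adjusted p of Ampd3 rose to between 0.0544 and 0.0791 when array 1 or 2 of carotid body, or 2 or 3 of adrenal medulla, was left out. Ak4, a mitochondrial adenylate kinase gene singled out after its values were seen, had the highest estimate of the list, 1.07 ± 0.38 (adjusted p = 0.0854), and overlapped.

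Among 11 measured metabolic substrates of AMPK, 3 passed toward adrenal medulla and 1 toward carotid body, and the median was -0.35. Of all genes, 16.5% and 10.9% passed. These counts rest on brightest probe sets, and among the 4 probe sets of Tbc1d1, from -0.06 to 0.86, 1 passed toward carotid body. Genes of the enzyme that makes the glycolytic activator fructose 2,6-bisphosphate differed in opposite directions. Pfkfb2, the form of heart, read 6.0, 5.82 and 6.37 in carotid body, against 7.94, 7.75 and 7.56 in adrenal medulla, which is -1.69 ± 0.17 (SE; adjusted p = 0.000613). Among the 4 probe sets of the gene, 2 passed, and the smallest difference was -0.01. Pfkfb3, the inducible form, read 6.51, 6.74 and 6.81 against 5.88, 6.02 and 5.46, a difference of 0.90 ± 0.17 (adjusted p = 0.00814), and its second probe set gave -0.10. The hormone-sensitive lipase gene Lipe differed by -1.18 ± 0.19 (adjusted p = 0.00397) and was read by another probe set at -0.09. Lipe is also an adipocyte and steroid-cell gene. The 3 measured adipocyte markers averaged 7.79 to 9.48 in carotid body, against 6.65 to 8.99 in adrenal medulla. The 10 adrenal cortex genes averaged 10.06, 5.28 and 5.0 in carotid body arrays 1, 2 and 3, against 11.63 to 12.12 in adrenal medulla. The part of either cell type in the Lipe values was not tested. Gfpt1, of the hexosamine pathway, also passed, at -0.41 ± 0.12 (adjusted p = 0.0460), in 1 of 6 probe sets, which ranged up to 0.11. Tbc1d4, which controls glucose transporter traffic and was singled out after its values were seen, read 6.64, 5.37 and 5.57 in carotid body, against 7.68, 6.79 and 6.39 in adrenal medulla. Array 1 was the highest of either tissue and the tissues overlapped; the difference of -1.09 ± 0.41 did not pass (adjusted p = 0.0981), and it passed in the paired fit (0.00506). The other Tbc1d4 probe set gave -0.80 and passed without the block. The acetyl-CoA carboxylase genes Acaca and Acacb, the best known AMPK targets, differed by 0.19 and -0.35 and did not pass (adjusted p = 0.337 and 0.193).

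Of 14 substrates in autophagy, growth control and transcription, 2 were higher in each tissue. Of all genes, 16.5% passed toward adrenal medulla and 10.9% toward carotid body. Ppargc1a, which encodes the coactivator PGC-1alpha of mitochondrial biogenesis, had the largest difference toward carotid body. It read 6.17, 6.92 and 6.57 in carotid body, against 4.50, 4.02 and 4.17 in adrenal medulla. The tissues were well apart, with a difference of 2.32 ± 0.21 (SE; adjusted p = 0.000357), and all 5 probe sets lay between 1.39 and 2.32, 4 of them passing. The transcription factor gene Foxo3 differed by 0.62 ± 0.14 (adjusted p = 0.0149), with another probe set at -0.13, and Hdac4, a class IIa deacetylase gene, by -0.65 ± 0.17 (adjusted p = 0.0311). By their brightest probe sets the autophagy kinase genes Ulk1 and Ulk2 differed by 0.04 and -0.09 (adjusted p = 0.883 and 0.713). The 4 probe sets of Ulk2 spanned -0.59 to 0.83, and 1 passed in each direction. The other gene that passed toward adrenal medulla, Atg9a of the autophagy machinery, gave -0.54 ± 0.14 (adjusted p = 0.0304). The adjusted p of Foxo3 rose to 0.0685 and 0.0557 without adrenal medulla arrays 2 and 3, and that of Hdac4 to as much as 0.104 without any one adrenal medulla array.

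The potassium channel genes proposed as AMPK targets in oxygen-sensing cells that were measured, Kcnma1 and Kcnk3, read 6.86 to 7.43 against 9.15 to 9.27 and 9.63 to 10.51 against 11.17 to 11.97 in carotid body and adrenal medulla, and both were higher in adrenal medulla (-2.14 and -1.64; adjusted p = 0.000198 and 0.00538). The 5 probe sets of Kcnma1 spanned -2.25 to 0.48, and 3 passed toward adrenal medulla; those of Kcnk3 spanned -1.86 to -1.64, and all 3 passed. In the brightest probe sets of Kcnma1, Kcnk3 and Lipe, carotid body array 1 was the highest of its tissue, at 7.43, 10.51 and 6.51. These 3 genes were singled out after their values were seen. In Stradb, Pfkfb2 and Flcn, also higher in adrenal medulla, carotid body array 3 was the highest of its tissue, at 7.14, 6.37 and 8.72. What sets the order of the arrays was not tested.

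**Figure D4:**
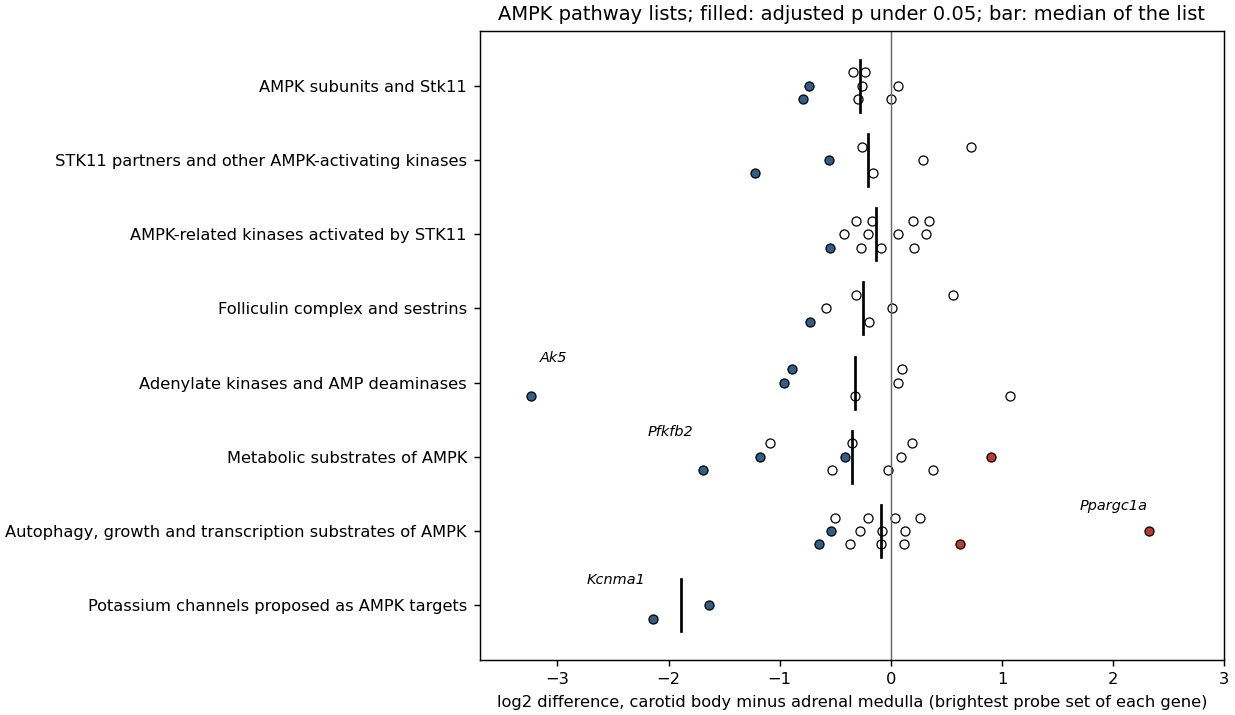
Log2 difference (carotid body minus adrenal medulla) of the AMPK subunit genes with Stk11 and of the 58 measured genes of 7 pathway lists, 1 point a gene by its brightest probe set; filled points have an adjusted p under 0.05 (blue, higher in adrenal medulla; red, higher in carotid body) and bars mark medians. Most points lie within 1 log2 unit of 0, with Ak5 at -3.24 and Ppargc1a at 2.32 at the ends.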

How the data were processed

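For every array the deposited file gives log2 values, one a probe set. Per the submitters' processing notes they come from Affymetrix Expression Console, with version, summarisation and normalization not given in the sources used here. The log2 scale was read from the range of the values. No further normalization was applied. The 64 control probe sets were left out of 45101. Names came from the platform annotation of 2016, and the gene IDs of all 8 members matched a RefSeq table with the same symbol. The 3 carotid body and 3 adrenal medulla arrays were compared with limma 3.58.1 in R 4.3.3 (lmFit, eBayes, no block; two-sided, Benjamini-Hochberg over 45037 probe sets). A gene is represented by its brightest probe set. All members are named; of each pathway list, the 3 members that differed most among those passing 0.05, or else the brightest 2; other named genes were chosen after their values were seen. Members and lists were chosen with earlier results of these data known. Of the 62 listed pathway genes, 58 were analysed and the others are not reported here. Per the series text, cohort numbers pair the samples. Deviations from tissue means correlated at 0.22, 0.08 and 0.16 within cohorts 1, 2 and 3, and at -0.21 to 0.10 between arrays of different cohorts. Spread between arrays holds animal and technical variation, and 3 arrays a tissue limit the precision. Alternatives were the cohort as a block, quantile normalization, median centring, leaving out dim probe sets, variance models, array weights, the mean of a gene's probe sets and leaving out arrays or cohorts.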

Additional observations from a re-analysis of the deposited data

How the results depend on the processing

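No member probe set passed toward carotid body under any of the alternatives run, and the ratio changes kept their direction in all of them. With the cohort as a replicate block, 5 member probe sets were higher in adrenal medulla against 4, and 5 pathway genes were higher in carotid body against 3; it changed no call among the brightest probe sets of the 8 member genes. Array weights and quantile normalization gave 5 and 6 such pathway genes. After quantile normalization 11.4% of all probe sets passed toward carotid body, against 11.5% as deposited. Centring each array on its median gave 7 member probe sets, Prkab1 at -0.45 (adjusted p = 0.0445), Prkaa2 at -0.11 and Prkag3 at -0.05, the last 2 with the sign turned; the mean of all probe sets gave Prkab1 at -0.51 (adjusted p = 0.0186) and Prkaa2 at -0.01. The dim Prkaa2 probe set 1429464_at turned to -0.02 with centring, and the dim Stk11 probe set 1448062_at to -0.06 with centring, -0.05 after quantile normalization and -0.01 with array weights.

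Leaving out single arrays or cohorts gave 0 to 5 member probe sets higher in adrenal medulla and 0 to 1 past 2-fold, 1 to 5 pathway genes higher in carotid body and 3 to 16 higher in adrenal medulla, and 1626 to 3025 and 952 to 2499 probe sets called toward carotid body and adrenal medulla. Differences ranged from -1.0 to -0.57 for Prkaa1 and -0.92 to -0.60 for Prkag2, both losing their call in some of these fits, from -0.19 to 0.23 for Prkaa2 and -0.09 to 0.15 for Prkag3. The dim probe sets 1429464_at (Prkaa2), 1442001_at (Prkab2) and 1448062_at (Stk11) also turned sign in some, with ranges of -0.18 to 0.43, -0.26 to 0.04 and -0.17 to 0.24. With fewer arrays there is less power; other causes of these changes were not tested. Dim probe sets limit what can be read of Prkag3.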
